A study of Homo sapiens with 12 samples.

Results

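The control side of the study was examined on its own: 6 of the 12 RNA-seq libraries are controls, and they come from 2 experiments. CTRL_CM10 is the set of 3 control libraries that accompanies exposure to CM10, an inhibitor of aldehyde dehydrogenases of the ALDH1A family. CTRL_shZBTB7B is the set of 3 control libraries that accompanies a short hairpin RNA against ZBTB7B, a zinc finger transcription factor. All 6 are labelled HT29, a human line derived from a colon carcinoma, and neither the vehicle of the first set nor the hairpin of the second is given in the labels, so both are described here only as controls. The libraries were taken by their labels, and the genes compared are the 13498 of 18665 with at least 1 TPM (transcripts per 1000000, a level scaled for gene length and for the total of the library) in at least 3 of the 6. Nothing in the sources says whether the replicates were separate cultures, and the p-values given here rest on nothing but how far these libraries differ among themselves. Experiment, deposited table, kind of control and any batch all change together between the sets and cannot be told apart.

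Control libraries carry the baseline against which a drug or a knockdown is read, and libraries of a single unperturbed line are usually close to each other in every abundant gene. HT29 cells are epithelial cells that grow in culture without blood vessels, muscle or blood cells, and intestinal epithelium is marked by the transcription factors CDX1 and CDX2, the actin bundler VIL1 and the cadherin CDH17. ALDH1A1, the enzyme that CM10 inhibits, oxidizes retinaldehyde to retinoic acid and other aldehydes to their acids, and LDHA, the lactate dehydrogenase subunit on which the study centres, turns pyruvate into lactate at the end of glycolysis.

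The 6 libraries did not show the pattern of 1 cell line. CDX2 was listed at 0.51, 1.38 and 0 TPM in CTRL_CM10 and at 0 in all 3 CTRL_shZBTB7B libraries, and CDH17 did not exceed 2.97 TPM in any of them. The sum over 20 genes of colonic identity was 67.3, 1449.5 and 191 TPM in CTRL_CM10 against 23.5, 11.8 and 637 TPM in CTRL_shZBTB7B, so 1 library of each set held far more of it than the rest. TSPAN8, a tetraspanin of epithelial membranes and the most abundant member, had 12.4, 219 and 61.8 TPM in CTRL_CM10 against 3.57, 2.59 and 449.7 TPM in CTRL_shZBTB7B. AGR2, a protein folding enzyme of mucus-secreting cells, had 2.25, 538 and 23.5 TPM in CTRL_CM10 against 6.18, 0.15 and 34.9 TPM in CTRL_shZBTB7B. The same 2 libraries led in a general epithelial marker. EPCAM, the adhesion molecule of nearly all simple epithelia, had 3.10, 54.0 and 12.1 TPM in CTRL_CM10 against 2.76, 2.00 and 192 TPM in CTRL_shZBTB7B. The transcription factors CDX1 and CDX2 did not exceed 2.40 TPM in any library, other members of its list were high in 2 libraries, and the markers of other cell types were present at levels that differed from library to library. The data go against the label in this respect, and the libraries are called here by their group and replicate number. The labels' extraction text, which is the same for every sample, speaks of tissue samples. Fewer cells of a type and less RNA per cell cannot be told apart in such bulk libraries.

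Genes made by the acid-secreting part of the stomach set CTRL_CM10 replicate 3 apart. The summed level of 14 genes of gastric chief and parietal cells was 104, 4423 and 84539 TPM in CTRL_CM10 against 1048, 130.3 and 78.9 TPM in CTRL_shZBTB7B. PGA3, which encodes a pepsinogen, the inactive form of a stomach protease, had 33.0, 19.6 and 32673 TPM in CTRL_CM10 against 312, 22.7 and 1.44 TPM in CTRL_shZBTB7B. The next in level was PGC, the other class of pepsinogen, at 23.6, 4329 and 20817 TPM in CTRL_CM10 and at 123, 12.5 and 0.38 TPM in CTRL_shZBTB7B. ATP4A, the catalytic subunit of the gastric proton pump, was at 223 TPM in CTRL_CM10 replicate 3 and did not exceed 0.60 TPM in the other 5 libraries. Pepsinogen genes are near-identical copies of each other, so the split of reads between PGA3 and PGA5 is uncertain while their sum is less so.

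Genes of the mucus-making surface of the stomach were instead highest in CTRL_CM10 replicate 2. Their sum over 11 genes was 71.0, 10787 and 2282 TPM in CTRL_CM10 against 231, 22.3 and 489.9 TPM in CTRL_shZBTB7B. TFF1, a trefoil peptide secreted with mucus, had 28.0, 6431 and 590.4 TPM in CTRL_CM10 against 75.2, 7.90 and 0 TPM in CTRL_shZBTB7B. Its neighbour in the family, TFF2, had 6.56, 2294 and 354 TPM in CTRL_CM10 against 21.8, 1.21 and 0 TPM in CTRL_shZBTB7B. The ranges of both trefoil genes overlapped between the sets, because CTRL_CM10 replicate 1 lay below CTRL_shZBTB7B replicate 1.

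Smooth muscle transcripts were the counterpart in the other set and peaked in CTRL_shZBTB7B replicate 2. The 16 contractile genes summed to 4557, 441 and 3701 TPM in CTRL_CM10 against 16384, 101417 and 1270.2 TPM in CTRL_shZBTB7B. ACTG2, the gamma actin of visceral smooth muscle, had 113, 41.4 and 212 TPM in CTRL_CM10 against 2882, 20377 and 15.9 TPM in CTRL_shZBTB7B. DES, the intermediate filament protein desmin, had 102, 4.41 and 315 TPM in CTRL_CM10 against 1854, 16958 and 2.89 TPM in CTRL_shZBTB7B. In both genes the lowest of the 6 values belonged to CTRL_shZBTB7B replicate 3, followed by CTRL_CM10 replicate 2, so each set held a library with little of this signal.

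Transcripts of T and cytotoxic lymphocytes were highest in CTRL_shZBTB7B replicates 1 and 3. The sum of 19 T and cytotoxic lymphocyte genes was 146, 26.6 and 160.3 TPM in CTRL_CM10 against 2010.0, 50.8 and 3629.9 TPM in CTRL_shZBTB7B. CD3E, a signalling chain of the T cell receptor complex, had 8.65, 3.94 and 45.4 TPM in CTRL_CM10 against 387, 6.80 and 409 TPM in CTRL_shZBTB7B. CTRL_shZBTB7B replicate 2 was within the range of CTRL_CM10 for both values, so these transcripts separated libraries rather than sets. LYZ, the lysozyme of macrophages and of some secretory epithelia, followed another order, with 498, 4468 and 30.4 TPM in CTRL_CM10 against 168, 13.1 and 2725 TPM in CTRL_shZBTB7B.

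**Figure D1:**
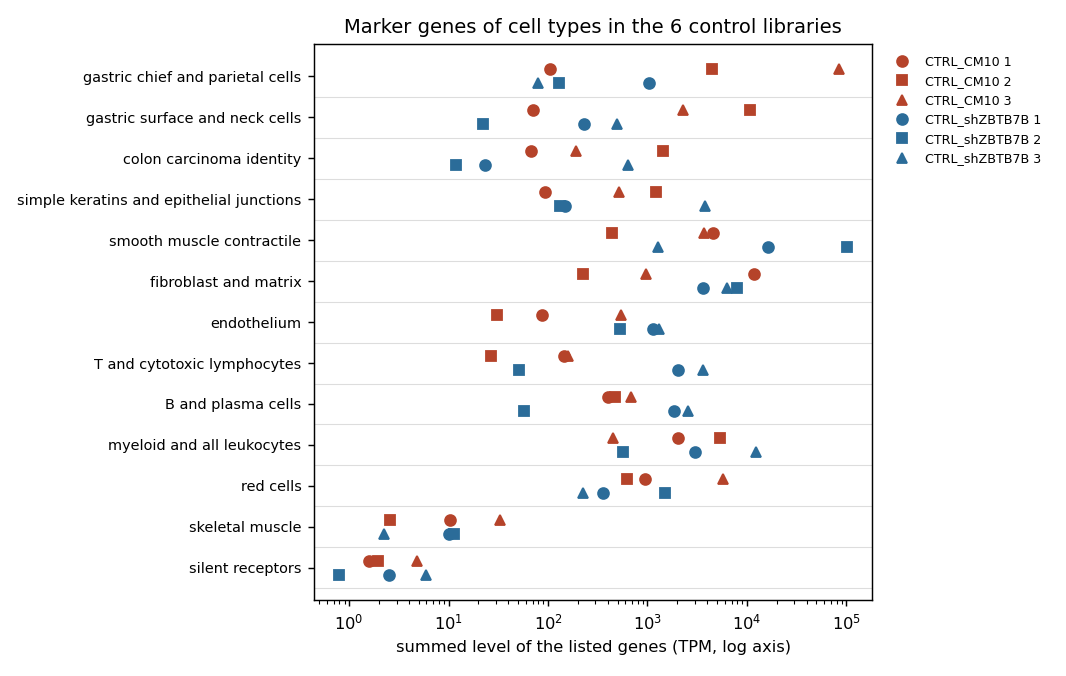
Summed level of marker genes of 11 cell types and tissues, with skeletal muscle and 11 olfactory receptor genes expected to be silent as low references, in each control library (TPM, log axis); red symbols are CTRL_CM10, blue symbols CTRL_shZBTB7B, and the symbol gives the replicate. The gastric chief and parietal sum runs to 84539 TPM in CTRL_CM10 replicate 3 and the smooth muscle sum to 101417 TPM in CTRL_shZBTB7B replicate 2, while the silent receptors stay at or under 5.94 TPM.

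Among the lists of cell type markers, endothelial genes had the most members that separated the sets on the deposited scale. Their sum over 15 genes was 87.0, 30.9 and 537 TPM in CTRL_CM10 against 1141, 534 and 1307 TPM in CTRL_shZBTB7B, and 9 of the 15 were lower in every CTRL_CM10 library than in every CTRL_shZBTB7B library. That share is to be read against 43.0% of all genes tested, and after the rescaling described further on it was 2 of 15, PECAM1 and VWF, against 19.0%. PECAM1, an adhesion molecule of endothelial junctions, had 12.9, 4.96 and 40.6 TPM in CTRL_CM10 against 187, 83.5 and 199.8 TPM in CTRL_shZBTB7B. Its log2 difference of -3.28 (SE 0.77) did not pass the limma test (adjusted p = 0.0957). PLVAP, which forms the diaphragms of fenestrated capillaries, had 3.17, 7.18 and 77.0 TPM in CTRL_CM10 against 178, 73.3 and 363 TPM in CTRL_shZBTB7B, and its ranges met. The fibroblast and matrix sum overlapped, at 11705, 227 and 967 TPM in CTRL_CM10 and 3590.3, 7886 and 6378 TPM in CTRL_shZBTB7B. Of these 20 genes, 6 were lower in CTRL_CM10 with no overlap on the deposited scale and 6 after rescaling, beside 43.0% and 19.0% of all genes.

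The most abundant transcripts of all were listed under MTRNR2L genes, nuclear copies of the mitochondrial 16S ribosomal RNA gene MT-RNR2 that carry the reading frame of the short peptide humanin. The tables hold 0 genes named with the mitochondrial prefix MT-. The coding sequence of MTRNR2L1 is shown beside the matching stretch of MT-RNR2 to show how close a nuclear copy can be to the mitochondrial transcript, and it is the closest of the 3 copies that could be compared. Both are read from GENCODE transcripts on GRCh37, MTRNR2L1 at chr17:22023388-22023462 on the plus strand and MT-RNR2 at bases 963 to 1037 of its transcript, and the capitals mark the bases of MTRNR2L1 that differ.
MTRNR2L1: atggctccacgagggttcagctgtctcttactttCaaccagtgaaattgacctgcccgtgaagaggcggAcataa
MT-RNR2: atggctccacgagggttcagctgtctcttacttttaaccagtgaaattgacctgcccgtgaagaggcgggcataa
The 75 bases differ at 2 positions, an identity of 97.3%, and over the whole transcript of 1555 bases the identity was 88.6%. MTRNR2L6 and MTRNR2L10 were less alike, at 91.2% and 88.2% over the 68 aligned positions of the coding sequence and 85.2% and 82.1% over the transcript. The sequences of MTRNR2L2 and MTRNR2L8 were not compared here. Reads can be shared among such copies, so the MTRNR2L levels below are uncertain as levels of single genes.

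MTRNR2L transcripts took 5.62%, 73.8% and 46.0% of the TPM total in CTRL_CM10 against 10.4%, 4.78% and 2.44% in CTRL_shZBTB7B. MTRNR2L2 alone had 35798, 506563 and 319770.1 TPM in CTRL_CM10 against 71654, 33496 and 16178 TPM in CTRL_shZBTB7B. It was the most abundant gene of all 6 libraries, with a 31.3-fold range. MTRNR2L8 stood next to it at 16424, 201459 and 112459.6 TPM in CTRL_CM10 and 27490.4, 12057 and 6997 TPM in CTRL_shZBTB7B, so that the ratio of MTRNR2L8 to MTRNR2L2 stayed between 0.35 and 0.46. CTRL_CM10 replicate 1 had less than CTRL_shZBTB7B replicate 1, so the ranges of the shares overlapped. The mean shares were 41.8% ± 34.3 in CTRL_CM10 and 5.88% ± 4.10 in CTRL_shZBTB7B (SD, n = 3 each). Their difference gave p = 0.2 (exact permutation test, two-sided), where 0.1 is the smallest p that 3 against 3 can give. Because TPM sums to a fixed total, what these genes take is missing from every other gene in CTRL_CM10 replicates 2 and 3.

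**Figure D2:**
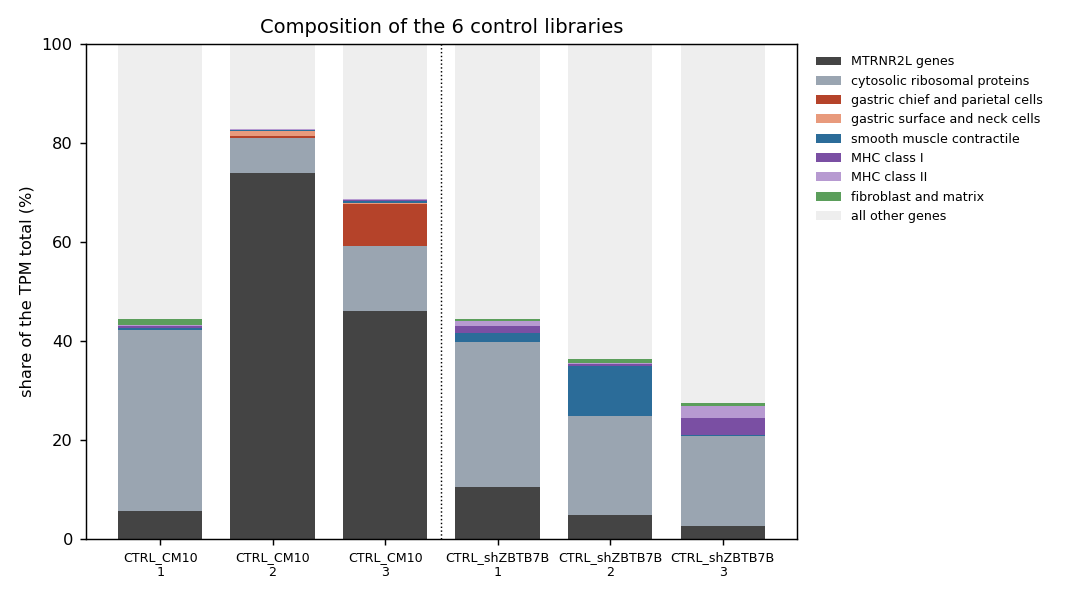
Share of the TPM total (%) taken by 8 groups of genes in each of the 6 control libraries, stacked to the whole, with CTRL_CM10 left of the dotted line and CTRL_shZBTB7B right of it. MTRNR2L genes fill 73.8% and 46.0% of CTRL_CM10 replicates 2 and 3 and at most 10.4% of the other 4 libraries.

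Cytosolic ribosomal protein genes, 78 in number, made up 36.5%, 7.15% and 13.2% of the total in CTRL_CM10 against 29.3%, 19.98% and 18.3% in CTRL_shZBTB7B. RPS27, a protein of the small ribosomal subunit, had 25390 TPM in CTRL_CM10 replicate 1 and 3522 and 6316 TPM in replicates 2 and 3, against 23462, 10819 and 11230.0 TPM in CTRL_shZBTB7B. No ribosomal protein gene separated the sets on the deposited scale. The number of genes listed above 0 did separate them, with 14627, 13237 and 14328 in CTRL_CM10 against 15969, 16092 and 16245 in CTRL_shZBTB7B. The mean difference was -2038 genes (exact permutation test, two-sided, p = 0.1, the smallest possible). Read depth is unknown for TPM values, and its part in this difference was not tested.

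Libraries of 1 set were not closer to each other than to those of the other set in CTRL_CM10. Spearman's rho over the 13498 genes was between 0.65 and 0.72 for the 3 pairs within CTRL_CM10, between 0.67 and 0.85 for the 3 pairs within CTRL_shZBTB7B and between 0.61 and 0.79 for the 9 pairs across the sets. These are correlations across genes, which are not independent replicates. CTRL_CM10 replicate 3 had its highest rho with CTRL_shZBTB7B replicate 1, and CTRL_CM10 replicate 2 with CTRL_shZBTB7B replicate 3. The lowest pair within CTRL_shZBTB7B joined replicates 2 and 3, the libraries richest in smooth muscle and in lymphocyte transcripts.

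**Figure D3:**
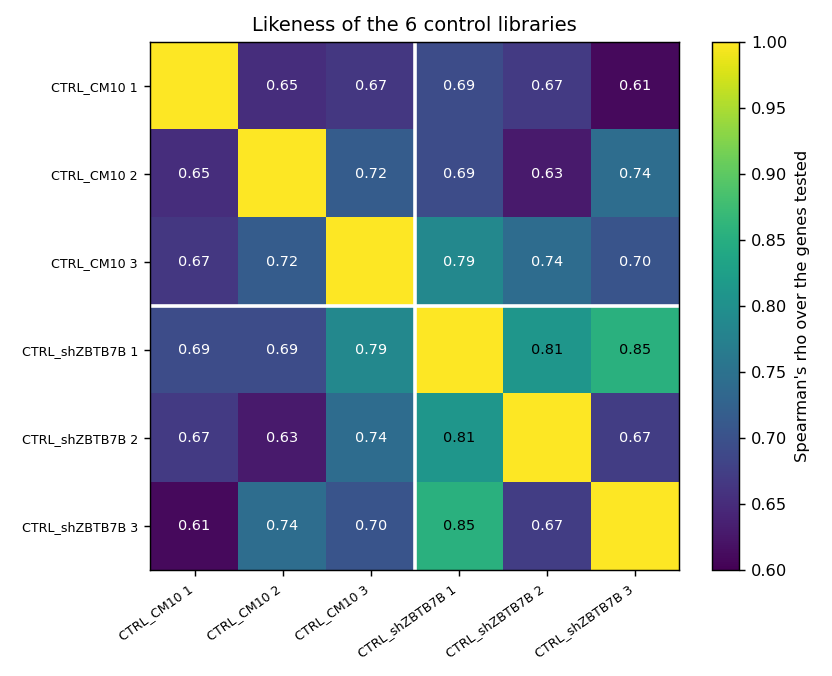
Spearman's rho between each pair of control libraries over the genes tested, with white lines between the CTRL_CM10 and the CTRL_shZBTB7B libraries. The across-set values, 0.61 to 0.79, span the 0.65 to 0.72 seen within CTRL_CM10.

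The spread within a set was large. The median SD of a gene on the log2(TPM + 1) scale was 0.89 in CTRL_CM10 and 0.48 in CTRL_shZBTB7B, and 72.1% of the genes had the larger SD in CTRL_CM10. For 9904 of the 13498 genes the difference between the 2 means was smaller than the wider of the ranges within a set. Among genes that averaged 50 TPM or more in the set, PGA5 had the widest ratio in CTRL_CM10, with 4.90, 2.81 and 17372 TPM. C6orf58, a secreted protein, was listed at 0, 882 and 0 TPM in CTRL_CM10, and REG3A, an antibacterial lectin of the gut, at 0, 556 and 0 TPM. After DES, the widest ratio in CTRL_shZBTB7B was that of MMP7, a matrix-degrading protease of epithelial cells, at 1.03, 0 and 2348 TPM. CST1, a cysteine protease inhibitor, followed the same library with 0.58, 0.42 and 1860 TPM in CTRL_shZBTB7B. The stem cell marker OLFM4 was likewise highest in CTRL_shZBTB7B replicate 3, with 0.58, 0.50 and 1357 TPM in that set, and SPINK1, a trypsin inhibitor, had 5.74, 0 and 837 TPM.

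Against this spread, the comparison of CTRL_CM10 with CTRL_shZBTB7B called no gene. In limma on log2(TPM + 1) with Benjamini-Hochberg adjustment, 0 of 13498 genes (0.0%) reached an adjusted p under 0.05, and the smallest adjusted p was 0.0957, which 922 genes shared. At an unadjusted p under 0.05 there were 67 genes (0.496%) higher and 4474 genes (33.1%) lower in CTRL_CM10. At the thresholds that the study's methods state, an adjusted p under 0.001 and a log2 difference beyond 1, the count was also 0. A fit that took its spread from all 12 libraries called 3 genes, all lower in CTRL_CM10: PIGY, LOC110384692 and CXCL2. These 3 were named after their values were seen, and each had passed the filter only through the CTRL_shZBTB7B libraries, where it is high, so the calls are given as a description. Of all genes tested, 17 passed the filter through the 3 CTRL_CM10 libraries alone and 213 through the 3 CTRL_shZBTB7B libraries alone, and for these the absence of overlap is fixed by the filter.

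PIGY, a subunit of the enzyme that starts glycosylphosphatidylinositol anchors, was listed at 0 in all 3 CTRL_CM10 libraries against 51.9, 66.9 and 18.7 TPM in CTRL_shZBTB7B. It shares its whole span, chromosome 4 from 89442149 to 89444927 on the minus strand of GRCh37, with PYURF, which had 171, 28.8 and 36.6 TPM in CTRL_CM10 against 70.5, 97.5 and 82.1 TPM in CTRL_shZBTB7B. Reads from the pair cannot be told apart with certainty, and their sum overlapped between the sets, at 171, 28.8 and 36.6 TPM in CTRL_CM10 and 122, 164 and 101 TPM in CTRL_shZBTB7B. PIGY was listed at 0 in 9 of the 12 libraries of the series, all but the CTRL_shZBTB7B set. CXCL2, a chemokine that attracts neutrophils, had 0, 0.84 and 0 TPM in CTRL_CM10 against 9.28, 14.7 and 7.65 TPM in CTRL_shZBTB7B. LOC110384692 had 0.66, 0 and 0 TPM in CTRL_CM10 against 8.57, 10.03 and 16.4 TPM in CTRL_shZBTB7B.

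The direction of the differences hung on the scale. The median log2 difference over all genes was -1.20 on the deposited TPM, -0.52 after the MTRNR2L genes were left out and each library was rescaled to its former total, and -0.03 after quantile normalization. On the deposited scale, 58 genes (0.43%) were higher and 5803 genes (43.0%) were lower in every CTRL_CM10 library than in every CTRL_shZBTB7B library. After rescaling the counts were 412 (2.97%) and 2631 (19.0%), and after quantile normalization 974 (7.22%) and 1089 (8.07%). All 58 of the higher genes were among those higher under both other scales. Of the 5803 lower genes, 2611 remained after rescaling and 1087 after quantile normalization. Both other scales raised most genes in CTRL_CM10 relative to CTRL_shZBTB7B, as the medians show. Higher genes could thus hardly lose their separation, while lower genes readily could. The contrast therefore cannot show that the higher genes are the steadier ones. Because the direction hung on the scale, list medians below are given relative to the median of all genes.

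**Figure D4:**
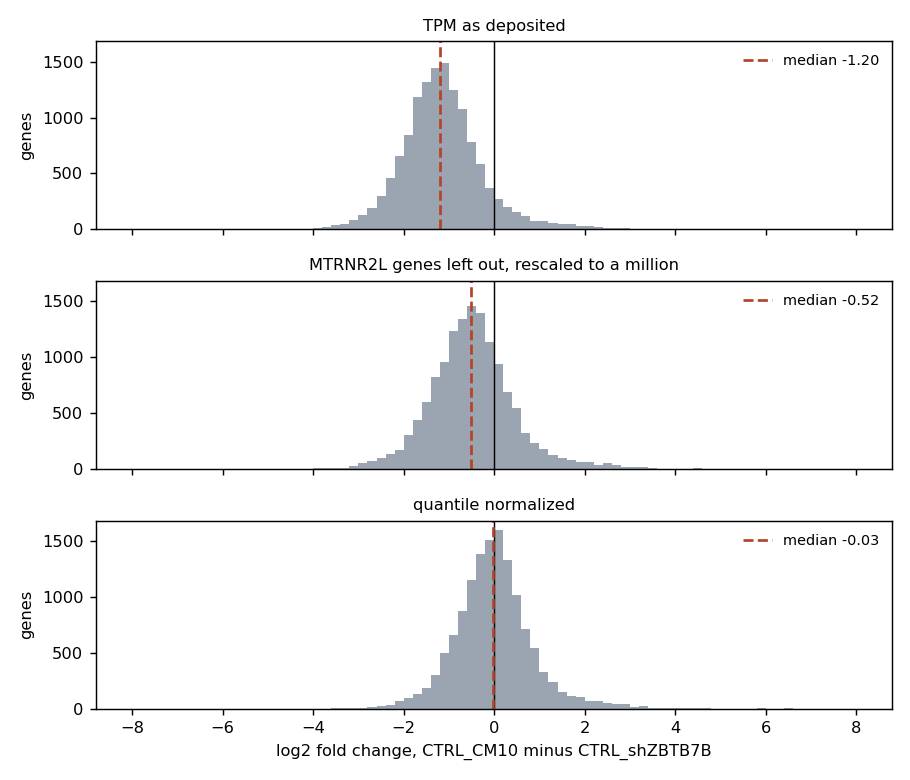
Distribution of the log2 difference, CTRL_CM10 minus CTRL_shZBTB7B, over all genes tested, on the deposited TPM, after leaving out MTRNR2L genes and after quantile normalization (bars count genes in steps of 0.2, the dashed line is the median). The median moves to -0.03 under quantile normalization, against -0.52 after rescaling and -1.20 on the deposited scale.

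ALDH1A1 itself was among the 58 genes. It lies on chromosome 9 from 75515587 to 75695358 on the minus strand of GRCh37 and had 110.1, 110.2 and 172 TPM in CTRL_CM10 against 22.0, 57.8 and 31.8 TPM in CTRL_shZBTB7B. The log2 difference was 1.86 (SE 0.56) and did not pass the limma test (adjusted p = 0.0963), and it was 2.74 after rescaling and 3.07 after quantile normalization. RNA of the enzyme that CM10 inhibits was thus higher in each of these CTRL_CM10 libraries, with means of 131 ± 35.7 TPM in CTRL_CM10 and 37.2 ± 18.5 TPM in CTRL_shZBTB7B (SD, n = 3 each). The difference was not called on the other scales either (limma, adjusted p = 0.353 after rescaling and 0.439 after quantile normalization). The part of the differing cell type markers in it was not tested. In the perturbed libraries ALDH1A1 had 6.95, 11.1 and 12.7 TPM with CM10 and 0, 855 and 60.4 TPM with the ZBTB7B hairpin. Of the 14 tested genes of the aldehyde dehydrogenase list, ALDH1A1 was the 1 higher gene and 5 were lower with no overlap on the deposited scale, beside 0.43% and 43.0% of all genes, among them ALDH9A1 at 30.9, 18.9 and 24.4 TPM in CTRL_CM10 against 47.0, 47.3 and 41.4 TPM in CTRL_shZBTB7B. After rescaling 2 were higher, ALDH1A1 and ALDH6A1, and 2 lower, ALDH4A1 and ALDH5A1, beside 2.97% and 19.0% of all genes.

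ZBTB7B was lower in every CTRL_CM10 library on the deposited scale, with 1.70, 7.65 and 12.4 TPM in CTRL_CM10 against 22.3, 25.1 and 25.4 TPM in CTRL_shZBTB7B. The hairpin libraries had 2.55, 5.97 and 0 TPM of ZBTB7B, so the ranges of the CM10 experiment's controls and of the knockdown overlapped. The log2 difference of -1.89 (SE 0.68) did not pass the limma test (adjusted p = 0.1104). After rescaling the separation was lost, at 1.80, 29.2 and 23.0 TPM of ZBTB7B in CTRL_CM10 against 24.9, 26.3 and 26.0 TPM in CTRL_shZBTB7B.

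LDHA had 304, 94.9 and 103 TPM in CTRL_CM10 against 259.5, 454 and 504 TPM in CTRL_shZBTB7B, and replicate 1 of each set made the ranges overlap. Its log2 difference was -1.43 on the deposited scale and -0.56 after rescaling, and neither passed the limma test (adjusted p = 0.154 and 0.541). CD274, which encodes the checkpoint ligand PD-L1, was low in most libraries, at 2.51, 0.95 and 1.35 TPM in CTRL_CM10 against 3.66, 2.22 and 16.1 TPM in CTRL_shZBTB7B. XBP1, a transcription factor of secretory cells, was at 82.2, 64.3 and 77.2 TPM in CTRL_CM10 against 94.6, 46.8 and 660.5 TPM in CTRL_shZBTB7B, with 1 library far above the rest. GATA4, an endoderm transcription factor, was listed at 0, 14.4 and 28.3 TPM in CTRL_CM10 against 2.71, 0 and 5.37 TPM in CTRL_shZBTB7B.

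Metallothioneins, small proteins that bind zinc and copper, had more members higher in CTRL_CM10 with no overlap than any other list, on each of the 3 scales. Of 8 members, 4 were higher with no overlap on the deposited scale, MT1E, MT1F, MT1G and MT1H, and 5 after rescaling, against 0.43% and 2.97% of all genes. The list median lay 2.82 above that of all genes in log2 units, and 3.02 and 2.71 above it after rescaling and quantile normalization. MT1G had 142, 361 and 7302 TPM in CTRL_CM10 against 16.5, 4.38 and 35.5 TPM in CTRL_shZBTB7B. MT2A, the most abundant member, overlapped, with 2672, 548 and 5217 TPM in CTRL_CM10 against 1312, 1033 and 2181 TPM in CTRL_shZBTB7B. Metallothionein genes are close copies of each other, so reads may be split among them.

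Other genes of the higher side were named after their values were seen, and they are not a full ranking. GSTA1, PIGR, BCAS1, ELAPOR1 and MUCL3 ranked between AKR1B10 and ADH1C and are not described, and AKR1C3 ranked below ADH1C. MT1H came after MT1G in log2 difference, with 19.4, 23.0 and 259 TPM in CTRL_CM10 against 0, 0 and 2.85 TPM in CTRL_shZBTB7B. CXCL17, a mucosal chemokine, had 2.88, 42.9 and 212 TPM in CTRL_CM10 against 0.36, 0 and 0.51 TPM in CTRL_shZBTB7B. CXCL17 passed the filter only through the CTRL_CM10 libraries, where it is high, so its absence of overlap was fixed by the filter. AKR1B10, a reductase of retinaldehyde and other aldehydes, had 9.50, 249.7 and 77.5 TPM in CTRL_CM10 against 8.92, 0.35 and 0 TPM in CTRL_shZBTB7B. CTRL_CM10 replicate 1 had the lowest value of its set in each of these genes. ADH1C, an alcohol dehydrogenase, was steadier, with 85.3, 104 and 48.8 TPM in CTRL_CM10 against 11.6, 4.34 and 13.8 TPM in CTRL_shZBTB7B. AKR1C3, a reductase of steroids and carbonyls, had closely spaced values, with 64.8, 54.4 and 66.0 TPM in CTRL_CM10 against 27.0, 23.1 and 28.3 TPM in CTRL_shZBTB7B. None of these passed the limma test (adjusted p = 0.0957 for ADH1C and 0.126 for AKR1C3). Beside them, the median of 8 tested gastric surface genes lay 5.47 above that of all genes and the median of 10 tested gastric chief and parietal genes 4.01 above it. With no overlap, only 2 of the 8 and 0 of the 10 were higher on the deposited scale, beside 0.43% of all genes. Both sums overlapped, since CTRL_CM10 replicate 1 (71.0 and 104 TPM) lay below CTRL_shZBTB7B replicate 1 (231 and 1048 TPM). The part of those markers in these differences was not tested.

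On the lower side, IL4R, a receptor chain for interleukins of allergic inflammation, had closely spaced values in CTRL_shZBTB7B, with 0.34, 1.55 and 3.15 TPM in CTRL_CM10 against 47.2, 53.9 and 47.4 TPM in CTRL_shZBTB7B. SUN2, which ties the nuclear lamina to the cytoskeleton, had 4.96, 1.6 and 9.33 TPM in CTRL_CM10 against 118, 96.8 and 86.8 TPM in CTRL_shZBTB7B. The actin cross-linker FLNA varied more, with 12.1, 3.83 and 61.5 TPM in CTRL_CM10 against 603, 2825 and 143 TPM in CTRL_shZBTB7B. Each kept its separation after rescaling and after quantile normalization, and each was chosen after its values were seen. The log2 difference of IL4R was -4.38 (SE 0.60) with an adjusted p of 0.0957 in limma, that of SUN2 -4.21 (SE 0.62) at the same adjusted p.

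**Figure D5:**
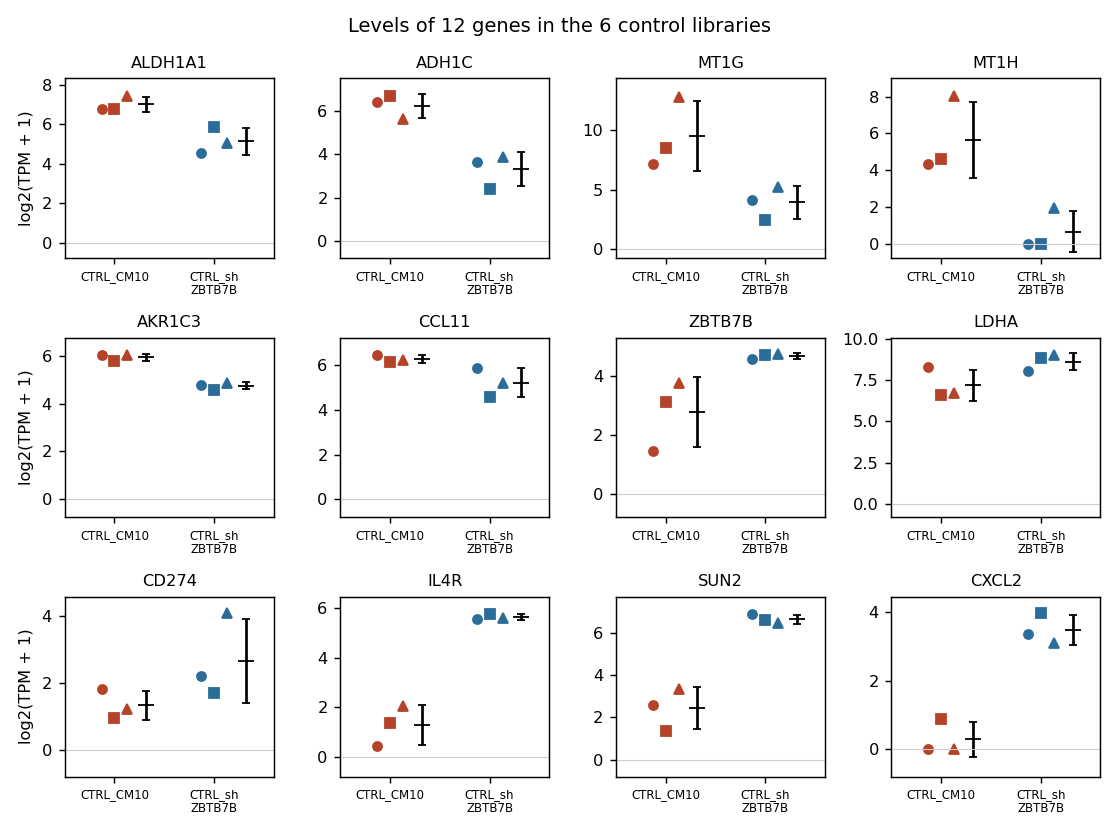
Levels of 12 genes as log2(TPM + 1) in CTRL_CM10 (red, left) and CTRL_shZBTB7B (blue, right), where circle, square and triangle are replicates 1, 2 and 3 and the black mark is the mean with 1 SD (n = 3 each). ALDH1A1, ADH1C, MT1G, MT1H, AKR1C3 and CCL11 lie higher in every CTRL_CM10 library, ZBTB7B, IL4R, SUN2 and CXCL2 lower, and LDHA and CD274 overlap. CXCL2 passed the filter only through CTRL_shZBTB7B, so its absence of overlap was fixed by the filter.

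Genes of antigen presentation by MHC class I were lower in CTRL_CM10 on the deposited scale, with 12 of 17 tested members separated against 43.0% of all genes. Their sum was 3839.9, 1496 and 2153 TPM in CTRL_CM10 against 14486, 4524 and 33503 TPM in CTRL_shZBTB7B. B2M, the shared light chain of class I molecules, had 1865, 583 and 724 TPM in CTRL_CM10 against 5458, 1639 and 10185 TPM in CTRL_shZBTB7B. After rescaling 5 of 17 stayed separated, TAP1, TAP2, CALR, CANX and ERAP1, against 19.0%, and the sums overlapped. The MHC class II sum overlapped already on the deposited scale, at 2596, 1186 and 1560.1 TPM in CTRL_CM10 and 11263, 1822 and 24517 TPM in CTRL_shZBTB7B, with CD74, the invariant chain, at 869, 529.6 and 1086 TPM in CTRL_CM10 and 6444, 862 and 13466 TPM in CTRL_shZBTB7B. In both classes the libraries with the most lymphocyte transcripts, CTRL_shZBTB7B replicates 1 and 3, had the highest levels, and the part of those cells in the difference was not tested.

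Glycolysis genes, the pathway that the study follows, had 16 of 24 members lower with no overlap on the deposited scale, beside 43.0% of all genes, and 5 of 24 after rescaling, close to the 19.0% of all genes, namely SLC2A1, SLC2A3, HK1, PGK1 and SLC16A1. GAPDH, often used as a reference gene, had 1708, 973 and 803 TPM in CTRL_CM10 against 1816, 3870.1 and 3056 TPM in CTRL_shZBTB7B. ALDOA, the aldolase of the pathway, had 367, 182 and 222 TPM in CTRL_CM10 against 530.1, 1354 and 751 TPM in CTRL_shZBTB7B. The list median relative to that of all genes was -0.56 in log2 units, and -0.37 and -0.61 after rescaling and quantile normalization. Nuclear genes of oxidative phosphorylation had a median 0.28 above that of all genes (0.47 after rescaling and 0.10 after quantile normalization). Of 59 members, 23 were lower with no overlap on the deposited scale, close to the 43.0% of all genes. After rescaling 3 were lower and 2 higher, beside 19.0% and 2.97%.

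Immediate early genes, which are switched on within minutes of a stimulus, and targets of NF-kB, a factor of inflammatory signalling, had list medians under that of all genes on each scale. Of 23 immediate early genes, 10 were lower with no overlap on the deposited scale and 5 after rescaling, both close to the 43.0% and 19.0% of all genes, the 5 being JUNB, IER2, ZFP36, BTG2 and SOCS3. JUNB had 93.2, 30.1 and 84.0 TPM in CTRL_CM10 against 278, 613 and 402 TPM in CTRL_shZBTB7B. NF-kB targets had 11 of 18 tested members lower with no overlap on the deposited scale, beside 43.0% of all genes. After rescaling 8 of 19 were lower, beside 19.0%, and after quantile normalization 3 of 18, beside 8.07%. CXCL2 was among the 11, and there its absence of overlap was fixed by the filter. How many other members this holds for was not counted. The NF-kB median relative to that of all genes was -1.02 on the deposited, -1.18 on the rescaled and -0.95 on the quantile normalized scale. The median of the immediate early list relative to that of all genes was -0.57 on the deposited, -0.51 on the rescaled and -0.58 on the quantile normalized scale.

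Proliferation genes were at low levels in most libraries. PCNA, the sliding clamp of DNA replication, had 53.8, 29.1 and 16.9 TPM in CTRL_CM10 against 64.4, 40.5 and 277 TPM in CTRL_shZBTB7B. UBE2C, a ubiquitin-conjugating enzyme of mitotic exit, was listed at 0, 9.66 and 0 TPM in CTRL_CM10 against 15.2, 1.46 and 315 TPM in CTRL_shZBTB7B. MKI67, the Ki-67 antigen of dividing cells, did not exceed 0.43 TPM in CTRL_CM10 and had 2.30, 0.19 and 19.0 TPM in CTRL_shZBTB7B. The list sum was 124, 152 and 68.5 TPM in CTRL_CM10 against 302, 178 and 1542 TPM in CTRL_shZBTB7B, and the rescaled sums overlapped.

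The summed heat shock chaperones separated the sets on the deposited scale, at 2507, 1116 and 2129 TPM in CTRL_CM10 against 3434, 7471 and 5217 TPM in CTRL_shZBTB7B, and overlapped after rescaling. HSPB1, a small heat shock protein, had 753, 420.0 and 665 TPM in CTRL_CM10 against 1127, 3685 and 599 TPM in CTRL_shZBTB7B, and HSPA8, a constitutive chaperone, had 404, 173 and 245 TPM in CTRL_CM10 against 541, 725 and 860 TPM in CTRL_shZBTB7B. Of 15 heat shock genes, 10 were lower with no overlap on the deposited scale and 4 after rescaling, beside 43.0% and 19.0% of all genes. IFITM3, an interferon-induced membrane protein that blocks virus entry, had 3484, 367 and 981 TPM in CTRL_CM10 against 1898, 2915 and 5456 TPM in CTRL_shZBTB7B, and the interferon list as a whole overlapped, with 4 of 28 members lower with no overlap, under the 43.0% of all genes. FTL, the light chain of the iron store ferritin and the most abundant member of the NRF2 list, had 24396, 3759 and 3189 TPM in CTRL_CM10 against 5836, 2653 and 11489 TPM in CTRL_shZBTB7B. CTRL_CM10 replicate 1 was the highest library for FTL and the lowest of its set for the gastric lists. Haemoglobin followed yet another order: HBA2, an alpha globin of red cells whose copy HBA1 is nearly identical, had 414, 268 and 2993 TPM in CTRL_CM10 against 143, 719 and 97.1 TPM in CTRL_shZBTB7B.

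Across all 33 lists, the summed levels of 27 overlapped between the sets on the deposited scale and those of 29 of 32 after rescaling, which removes the MTRNR2L list. In 30 lists the highest library of a set exceeded its lowest by a larger factor than the one between the set means. The 3 lists whose rescaled sums did not overlap were the metallothioneins and the aldehyde dehydrogenases, with higher sums in CTRL_CM10, and the immediate early genes, with lower sums. The median rescaled log2 difference of the aldehyde dehydrogenases was -0.02, which is 0.50 above that of all genes. With no overlap, 2 of their members were higher, ALDH1A1 among them, and 2 were lower, beside 2.97% and 19.0% of all genes. The rescaled metallothionein sum was 5168, 7349 and 35285 TPM in CTRL_CM10 against 2217, 2086 and 3117 TPM in CTRL_shZBTB7B.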

How the data were processed

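The authors' sequencing service captured RNA with biotinylated probes, processed the reads with CASAVA and FASTQC, aligned them to hg19 (GRCh37) with HISAT and computed levels with RSEM; the versions of HISAT and RSEM are not given in the sources used. The deposited values are TPM per gene in 2 tables, each library summing to the same total, with no counts, so depth and counting error are unknown. The tables, scaled separately but to the same total, were joined by symbol (18665 genes), and 5167 genes below the minimum of 1 TPM in 3 libraries were left out. Levels were tested as log2(TPM + 1) with limma 3.58.1 in R 4.3.3 (group as the only term, variance trend, Benjamini-Hochberg, threshold 0.05). A difference on this scale understates changes of low genes. No overlap means that all 3 libraries of a set lie above or below all 3 of the other. Exact permutation tests used scipy 1.17.1. Gene positions come from GENCODE v44lift37, in which 96.5% of the symbols were found.

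The lists and the choice of libraries were made with earlier results of these data known. Named by rule were the 6 study genes, the largest called differences (of which there were none), the 2 most abundant members of each list, the 2 top genes of each library and the 10 widest ranges within a set among genes averaging 50 TPM or more; defining markers could be added, and other genes are said to be chosen after their values were seen. A few genes are not reported here. Alternatives were quantile normalization, rescaling without MTRNR2L genes, no filter, 1 TPM in all libraries, a block for the replicate number, a pseudocount of 0.1, all 12 libraries, and each library left out.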

Additional observations from a re-analysis of the deposited data

How the results depend on the processing

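The count of genes called stayed at 0 under quantile normalization, rescaling without MTRNR2L genes, both other filters, the pseudocount of 0.1 and the leaving out of any library (0 to 0 genes, in total and in each direction). With all 12 libraries in the fit it was 3, of which 0 were higher and 3 lower in CTRL_CM10 (PIGY -5.37, LOC110384692 -3.37, CXCL2 -3.19 on the log2 scale), each of which had passed the filter only through CTRL_shZBTB7B. At an unadjusted p under 0.05, 4541 genes became 1108 (558 higher) after quantile normalization and 1806 (231 higher) after rescaling, 2365 without CTRL_shZBTB7B replicate 1, 2661 without its replicate 3 and 6025 without CTRL_CM10 replicate 1. XBP1 turned to 0.18 under quantile normalization and to 0.15 without CTRL_shZBTB7B replicate 3 (-1.74 to 0.15 with any 1 library left out), and the cause was not tested. In the fit with the replicate block 0 genes were called and 3527 had an unadjusted p under 0.05. Libraries of the same number did not deviate together (correlations 0.07, -0.23 and -0.16). These correlations cannot show whether such libraries share more than a number. The counts of genes without overlap were recomputed under settings chosen after seeing the data. The 58 higher genes became 412 after rescaling, 974 under quantile normalization, 81 to 352 with 1 library left out (156 without CTRL_CM10 replicate 1, 352 without its replicate 2, 121 and 152 without CTRL_shZBTB7B replicates 1 and 3), and 851 after rescaling without CTRL_CM10 replicate 2. The 5803 lower genes became 2631 after rescaling, 1089 under quantile normalization, 5903 to 8552 with 1 library left out, and 3890 after rescaling without CTRL_CM10 replicate 2. Leaving out a library makes separation easier by construction.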
